A study of Homo sapiens with 6 samples.

Results

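Axon guidance ligands and receptors were examined in LA1-55n, a neuroblastic human neuroblastoma line that is a clone derived from the LA-N-1 line. Members were the genes whose symbol begins with SLIT and a digit, ROBO, SEMA, PLXN, EPHA, EPHB, EFNA, EFNB, UNC5 or NTN and a digit, or is NRP1, NRP2, DCC or NEO1, with antisense and pseudogene symbols left out. The rule found 48 genes among 14779 named genes. Of these 48, 45 encode guidance ligands or receptors. The other 3 met the rule by symbol and are not counted as ligands or receptors (SLIT2-IT1, UNC50 and UNC5CL). Every member had 1 probe set. The families were covered unevenly, since 0 ROBO and 0 SEMA genes and not EPHB2 were among the named probe sets; these genes are not analysed here. The SLIT ligands were therefore seen without their ROBO receptors, and the plexins and neuropilins without their semaphorin ligands.

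RNA of 6 samples was hybridised to Affymetrix arrays (Human Gene 2.0 ST). The first group, shGFP, was 3 samples of LA1-55n cells with a teton (doxycycline-inducible) hairpin against GFP, a control target. The second group, shGLDC99, was 3 samples of the same line with a teton hairpin against glycine decarboxylase (GLDC). All 6 samples had doxycycline at 0.5 µg/ml for 7 days, so the drug was common to both groups. The series design text calls the 3 samples of a group independent but gives no detail of cultures, and p-values therefore reflect only the variation from sample to sample, part of which may be technical. A single hairpin against GLDC was used.

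Guidance cues steer growing axons and migrating cells, and many of them also act outside the nervous system, in vessels and other tissues. SLIT proteins repel cells through ROBO receptors. Netrins attract through DCC and NEO1 and repel through UNC5 receptors, which are also known as dependence receptors. Semaphorins signal through plexins, with neuropilins as co-receptors for the secreted class. Ephrins are membrane-bound ligands of the Eph receptor tyrosine kinases: A-type ephrins are held by a lipid anchor, and B-type ephrins span the membrane. Neuroblastoma arises from the sympathetic lineage of the neural crest, whose migration uses several of these cues.

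Deposited values were read as log2 intensity, and every difference below is shGLDC99 minus shGFP on the log2 scale. A gene is said to have risen or fallen where its limma p-value was under 0.05 after Benjamini-Hochberg adjustment across the 14779 genes tested. Levels of different genes come from different probes and are not set against each other. A gene with a mean below the median gene level of 5.09 is called dim; its level is not shown to exceed background, and the size of its difference is uncertain. GLDC itself, the check of the labels, was lower in every shGLDC99 array, at 5.65 to 5.98 against 7.81 to 7.90, a difference of -2.0 ± 0.10 (SE; limma adjusted p = 0.00101). Array medians lay between 4.28 and 4.33. Of 11 sympathetic neuroblastoma markers 9 were measured, with a mean level of 6.80 to 6.89 in shGFP and 6.72 to 6.84 in shGLDC99 arrays. GATA3 (9.65 in shGFP), HAND2 (7.98) and PHOX2A (7.30) were well above the median gene level, while TH (5.11) lay close to it and DBH (4.45) and ALK (4.53) below it. Of the 9 markers 2 fell, ISL1 by 1.09 (limma adjusted p = 0.00412) and GATA3 by 0.48 (0.0161), and CHGB rose by 0.41 (0.0145), so the near-equal list means hide changes in both directions. Of 27 listed markers of Schwann cells, fibroblasts, endothelium, leukocytes and epithelium, 13 were measured and all were dim. LUM, a fibroblast proteoglycan, was the only marker of these 13 to pass the test, at 4.0 in shGLDC99 against 3.48 in shGFP cells. The part of these sympathetic and fibroblast marker changes in the results below was not tested. In bulk RNA, fewer cells of a type and less RNA per cell cannot be told apart.

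Both ligands and receptors were among the guidance genes that changed, and nearly all of the changes were falls. The Eph receptors EPHB4 and EPHA5, the ephrin EFNA4, the netrin receptors UNC5B and NEO1 and the ligand SLIT3 fell in shGLDC99 cells, and the semaphorin receptor PLXNA1 rose. That is 6 falls and 1 rise among 45 ligands and receptors, with 38 not past the threshold. Over all genes, 4.80% fell and 3.72% rose (8.52% in all, against 15.6% of the 45). The median difference over the 45 was -0.09 and over all genes -0.01, and 28 of the 45 were lower. The groups did not overlap for 16 of the 45, 15 lower and 1 higher, where 16.3% of all genes were lower and 14.5% higher without overlap. EFNA4 and EPHA5, an A-type ephrin and a receptor of that class, both fell. Of 4 netrins 0 changed beside UNC5B and NEO1, and EFNB2, the ligand of EPHB4, was not past the threshold (-0.11). No ROBO or SEMA gene was measured, so the receptors of SLIT3 and the semaphorin ligands of PLXNA1 were not seen.

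**Figure D1:**
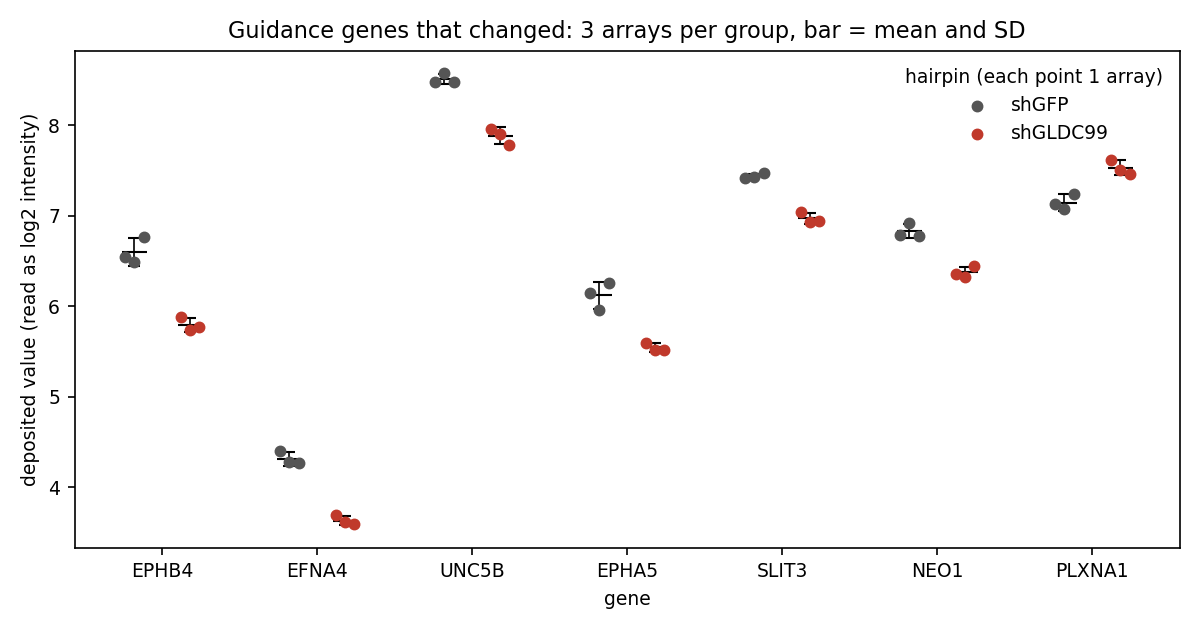
Deposited values (log2) of the 7 guidance genes that changed, with 1 point per array, grey for shGFP and red for shGLDC99; the bar shows the mean and SD of 3 arrays. All 3 shGLDC99 points lie below all 3 shGFP points for 6 genes and above them for PLXNA1.

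Among ephrins and their receptors, 3 of 21 measured genes fell and 0 rose by limma's adjusted p (5 lower and 0 higher at an unadjusted p under 0.05), with a family median of -0.08. Over all genes, 4.80% fell and 3.72% rose. At an unadjusted limma p under 0.05, 1957 of all 14779 genes were lower and 1642 higher. EPHB4, the receptor of ephrin-B2 best known from the boundary between arteries and veins, had values of 6.54, 6.49 and 6.77 in shGFP arrays a, b and c and of 5.88, 5.73 and 5.77 in shGLDC99 arrays a, b and c. The groups lay apart by more than the range within either. The difference was -0.81 ± 0.0936 (SE), or 1.75-fold lower (limma adjusted p = 0.00716), the largest among the 48 members. The other 3 measured EPHB receptors were not past the threshold. EPHB3 differed by -0.17 (95% interval -0.49 to 0.15), EPHB1 by -0.04 (-0.45 to 0.36) and EPHB6, whose kinase domain is inactive, by 0.10 (-0.09 to 0.29).

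EFNA4, an ephrin of the lipid-anchored class, had values of 4.41, 4.27 and 4.27 in shGFP and of 3.69, 3.61 and 3.59 in shGLDC99 arrays. It was the member with the second largest difference, -0.69 ± 0.07 (SE; 1.61-fold lower; limma adjusted p = 0.00518), and it is dim, so this size is uncertain. In the reference gene table EFNA4, EFNA3 and EFNA1 follow each other on chromosome 1. EFNA3, the neighbour of EFNA4, differed by 0.03 (95% interval -0.18 to 0.24), and EFNA1 by -0.03 (-0.60 to 0.53). The table also lists a transcript that reads through EFNA4 into EFNA3, so probes of either gene could read it. EFNA5 (-0.11) and EFNA2 (-0.26) were not past the threshold. Values of EFNA2 in shGLDC99 cells were scattered, at 5.90, 5.35 and 5.15.

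EPHA5, a receptor of ephrin-A ligands in axon mapping, stood at 6.15, 5.96 and 6.26 in shGFP and at 5.60, 5.52 and 5.52 in shGLDC99 arrays. The groups did not overlap, and the spread was wider in shGFP (SD 0.153) than in shGLDC99 cells (SD 0.0473). The difference was -0.58 ± 0.0910 (SE; limma adjusted p = 0.0152). Without shGFP array a, shGLDC99 array b or shGLDC99 array c, EPHA5 was no longer past the threshold (limma adjusted p = 0.0558, 0.0585 and 0.0582), with differences of -0.56 in each case.

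The other 8 EPHA receptors were not past the threshold. EPHA3 (-0.41, adjusted p = 0.102) and EPHA6 (-0.31, adjusted p = 0.0751) were lower in every shGLDC99 array than in any shGFP array; both are dim. EPHA7 had the tightest values of the family, 8.14 to 8.19 in shGFP and 8.16 to 8.22 in shGLDC99 arrays. Its difference was 0.03, with a 95% interval of -0.11 to 0.18 that excludes a fall of the size seen for EPHA5. EPHA1, EPHA2, EPHA4, EPHA8 and EPHA10 differed by -0.13 to 0.03, with overlapping groups. Among the membrane-spanning ephrins EFNB2, the ligand of EPHB4, was dim (3.0 to 3.56 over the 6 arrays) and differed by -0.11 (95% interval -0.44 to 0.23). EFNB1 differed by 0.05 and EFNB3 by -0.04.

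Promoter sequences from RefSeq (GRCh38.p14), matched by symbol, were found for 38 of the 45 genes. UNC5B, which also fell under every alternative tried, was not among these 38. The 250 bases before the gene's start are shown for EPHB4 and EFNA4, which fell under every alternative in which they were tested, and for PLXNA1, which rose; they are printed in the direction of the gene, with GC boxes (GGGCGG, or its reverse complement CCGCCC) in capitals.
EPHB4, chr7:100827524-100827773, minus strand: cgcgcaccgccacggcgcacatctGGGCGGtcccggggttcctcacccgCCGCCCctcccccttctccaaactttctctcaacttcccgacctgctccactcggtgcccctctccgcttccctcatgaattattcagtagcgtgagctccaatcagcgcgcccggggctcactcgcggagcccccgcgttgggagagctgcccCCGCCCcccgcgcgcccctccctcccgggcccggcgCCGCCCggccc
EFNA4, chr1:155063490-155063739, plus strand: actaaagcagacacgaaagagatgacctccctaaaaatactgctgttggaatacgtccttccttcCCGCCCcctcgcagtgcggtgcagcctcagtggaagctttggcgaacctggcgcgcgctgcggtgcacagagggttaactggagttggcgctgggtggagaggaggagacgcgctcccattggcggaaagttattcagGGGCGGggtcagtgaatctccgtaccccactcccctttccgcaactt
PLXNA1, chr3:126982865-126983114, plus strand: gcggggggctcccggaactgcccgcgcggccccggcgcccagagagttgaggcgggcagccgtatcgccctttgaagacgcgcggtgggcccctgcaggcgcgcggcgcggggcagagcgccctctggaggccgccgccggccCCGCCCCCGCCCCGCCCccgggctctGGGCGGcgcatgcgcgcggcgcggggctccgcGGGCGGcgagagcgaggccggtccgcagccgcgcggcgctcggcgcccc
Counted on either strand, with overlaps allowed, the EPHB4 stretch held 4 GC boxes, that of EFNA4 2 and that of PLXNA1 5, of which some in PLXNA1 run into each other. At least 1 GC box was present in 31 of 38 guidance promoters (81.6%) and in 57.7% of 10715 promoters of genes tested here, whose median GC content was 62.8% against 68.0% for the guidance genes. Among guidance promoters, it was present in 5 of 6 of changed genes (83.3%) and in 26 of 32 of genes not past the threshold (81.2%). The E-box CACGTG, read by factors of the MYC family, was found in 1 of the 38 guidance promoters, in 0 of the 6 that belong to changed genes and in 7.9% of the promoters of genes tested. These matches describe letters in the window and do not show binding.

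In the netrin system, 2 of 6 measured receptors fell, UNC5B and NEO1, where 4.80% of all genes fell. These 2 were the only netrin receptors at or above the median gene level, where 610 of 7390 genes fell. The median difference of the 10 netrins and receptors was 0.12, with 6 higher and 4 lower. Of 4 netrins 0 changed by limma's adjusted p, and 1 (NTN4) had an unadjusted p under 0.05; whether receptors and ligands differed in this was not tested. UNC5B, a repulsive netrin receptor also found on the tips of growing vessels, read 8.48, 8.58 and 8.48 in shGFP and 7.96, 7.91 and 7.78 in shGLDC99 arrays. The lowest shGFP value stood above the highest shGLDC99 value by several times the SD within groups (0.0561 and 0.0926). The difference was -0.63 ± 0.0742 (SE), or 1.54-fold lower (limma adjusted p = 0.00742), and UNC5B fell under every alternative tried.

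NEO1, the receptor neogenin, which binds netrins and repulsive guidance molecules, read 6.79, 6.92 and 6.78 in shGFP and 6.36, 6.33 and 6.44 in shGLDC99 arrays. It differed by -0.45 ± 0.0711 (SE; limma adjusted p = 0.0146). The call was lost without shGFP array b, shGLDC99 array a or shGLDC99 array b (limma adjusted p = 0.0539, 0.0555 and 0.0581), with differences of -0.41, -0.44 and -0.43.

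The remaining netrin receptors were dim in both groups and none passed the test. DCC, the attractive netrin receptor, lay between 2.39 and 2.89 over the 6 arrays and differed by 0.10 (95% interval -0.22 to 0.42). UNC5A (0.21) and UNC5C (0.19) had differences above 0, and UNC5D (-0.31, adjusted p = 0.148) below 0. Whether UNC5B differed from these relatives in its response was not tested. NTN4, a netrin of basement membranes, was lower in all 3 shGLDC99 arrays, at 5.82 to 6.07 against 6.15 to 6.27, but its difference of -0.24 missed the threshold (adjusted p = 0.158). NTN1, the founding member of the family, differed by 0.15 (95% interval -0.20 to 0.49), NTN3 by 0.16 and NTN5 by 0.22.

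**Figure D2:**
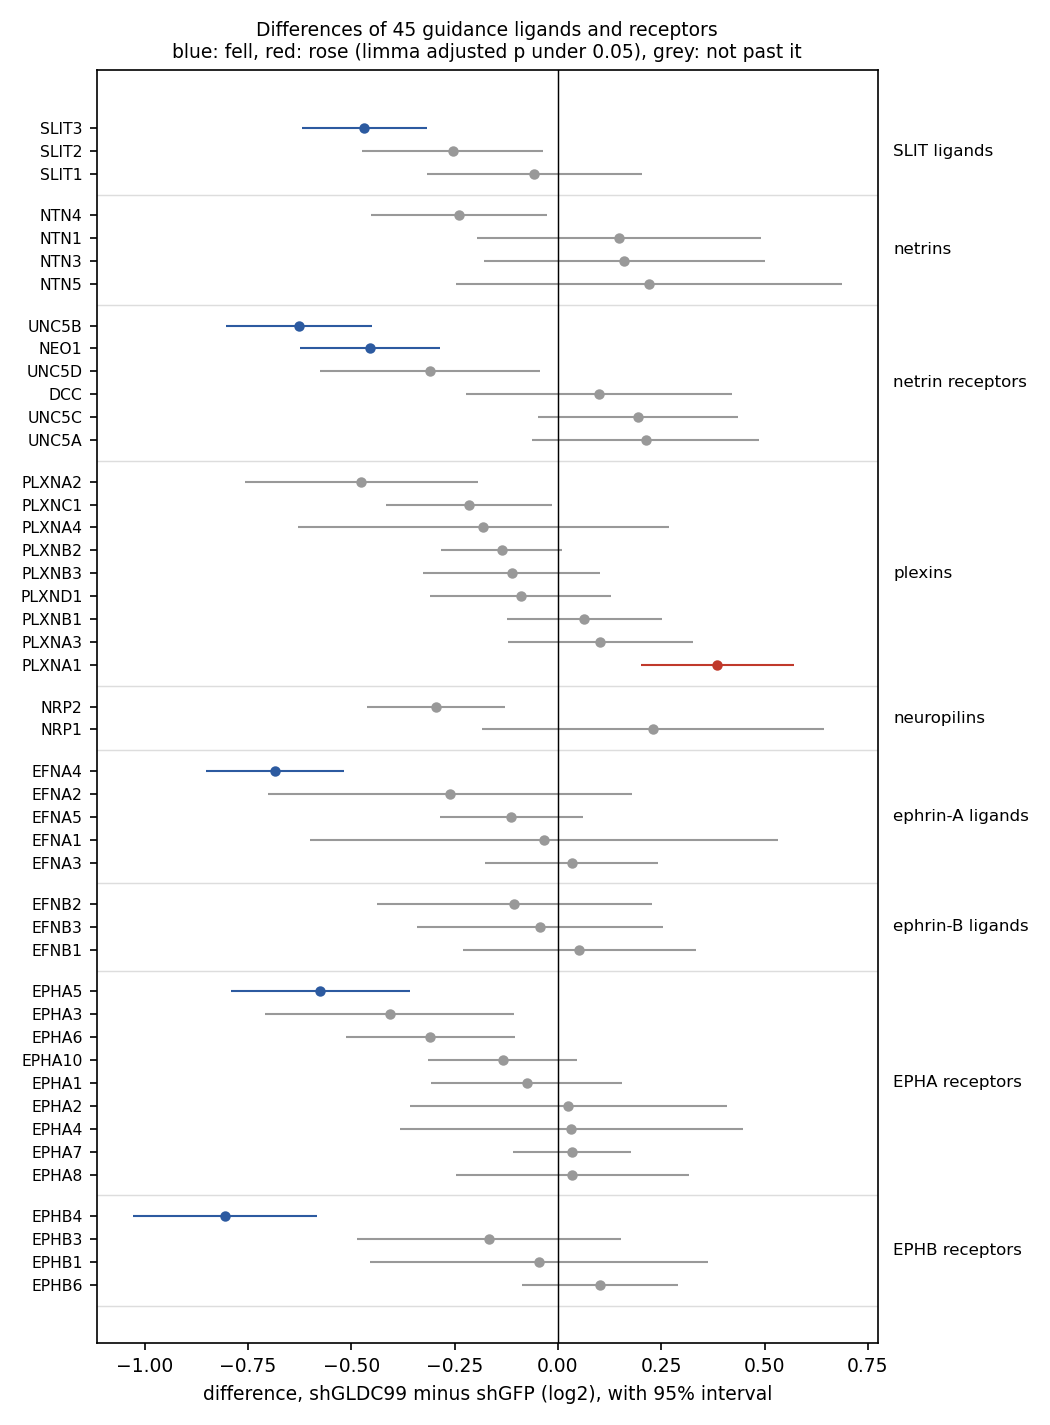
Differences (shGLDC99 minus shGFP, log2) of the 45 guidance ligands and receptors with 95% intervals from limma, grouped by role. Blue marks the 6 genes that fell, from EPHB4 at -0.81 to NEO1 at -0.45, red marks PLXNA1 at 0.39, and grey marks the 38 not past the threshold.

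All 3 SLIT ligands were measured, and 1 of them fell, where 4.80% of all genes fell. The 3 lay at or above the median gene level, where 610 of 7390 genes fell. SLIT3 read 7.42, 7.43 and 7.47 in shGFP and 7.04, 6.93 and 6.95 in shGLDC99 arrays. Replicates were close together in both groups (SD 0.0275 and 0.0574), and the difference was -0.47 ± 0.0632 (SE), or 1.38-fold lower (limma adjusted p = 0.00975). SLIT2 had the same lack of overlap, with 5.66 to 5.72 in shGFP and 5.26 to 5.58 in shGLDC99 arrays, but its difference of -0.25 ± 0.0921 (SE) was not past the threshold (adjusted p = 0.148). SLIT1 differed by -0.06 (95% interval -0.32 to 0.20) and its groups overlapped.

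SLIT2-IT1, a non-coding transcript that lies inside SLIT2 and met the rule by its symbol, fell by 0.58 ± 0.0831 (SE; limma adjusted p = 0.0112). Its values were 4.21, 4.23 and 4.13 in shGFP and 3.57, 3.50 and 3.75 in shGLDC99 arrays, and it is dim. SLIT2 and SLIT3 also carry the 2 genes of miR-218, MIR218-1 and MIR218-2, within their bounds. Both genes give the same mature 5p strand, shown here with its seed (bases 2 to 8) in capitals because 1 microRNA is shared by the 2 host genes.
hsa-miR-218-5p: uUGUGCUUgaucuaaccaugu
The probe set of MIR218-1 read 3.82 to 4.12 in shGFP and 4.19 to 4.39 in shGLDC99 arrays, a difference of 0.33 (adjusted p = 0.104), opposite in sign to that of SLIT2-IT1. The probe set of MIR218-2 differed by 0.16 (95% interval -0.30 to 0.61). Neither passed the test, both are dim, and whether these probe sets read the microRNA, its precursor or the host transcript was not determined.

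Semaphorin receptors held the only rise. PLXNA1, a plexin that pairs with neuropilins to receive secreted semaphorins, read 7.13, 7.07 and 7.25 in shGFP and 7.62, 7.51 and 7.47 in shGLDC99 arrays. The groups did not overlap, and the difference was 0.39 ± 0.0777 (SE), or 1.31-fold higher (limma adjusted p = 0.0310). This call was lost without any 1 of the 6 arrays: limma adjusted p = 0.0923, 0.0949 and 0.0567 without shGFP a, b and c, and 0.0924, 0.0846 and 0.0685 without shGLDC99 a, b and c, with differences from 0.34 to 0.43. Without moderation of the variance it was lost as well (adjusted p = 0.0601).

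PLXNA2, a further A-type plexin, had values of 4.51, 4.85 and 4.43 in shGFP and of 4.19, 4.12 and 4.05 in shGLDC99 arrays. The groups did not overlap, but the difference of -0.48 ± 0.118 (SE) was not past the threshold (adjusted p = 0.0565) and the gene is dim. NRP2, a co-receptor for secreted semaphorins and for VEGF-C, lay at the threshold: 6.49, 6.65 and 6.60 in shGFP against 6.33, 6.24 and 6.28 in shGLDC99 arrays, a difference of -0.30 ± 0.0702 (SE; adjusted p = 0.0504). NRP2 passed in 2 of 13 alternative fits, once the dimmest 40% of genes were left out (limma adjusted p = 0.0142) and once the prior variance followed intensity (0.0128). It passed in 0 of the 6 fits that left out 1 array, and not with the replicate block (0.137) or without moderation (0.0622). NRP1 was dim, at 2.60 to 3.31 over the 6 arrays, and differed by 0.23 (95% interval -0.18 to 0.64). PLXNC1 (-0.21) and PLXNB2 (-0.14) were also lower without overlap and not past the threshold. The other 5 plexins, PLXNA3, PLXNA4, PLXNB1, PLXNB3 and PLXND1, differed by -0.18 to 0.10. By family, medians were -0.25 for 3 SLIT ligands, 0.12 for 10 netrins and their receptors, -0.11 for 11 plexins and neuropilins and -0.08 for 21 ephrins and Eph receptors.

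Most changed ligands and receptors were not dim. Of the 20 guidance genes at or above the median gene level, 5 fell and 1 rose, 30.0% of them, where 14.1% of all genes at those levels changed. Of the 25 dim ligands and receptors 1 (EFNA4) fell and 0 rose by limma's adjusted p, 4.0% of them, where 2.92% of all dim genes changed. At an unadjusted limma p under 0.05, 6 of the 25 were lower and 0 higher. Of all 7389 dim genes, 476 were lower and 512 higher by that measure. By side of the pair, 2 of 15 ligands fell, and 4 of 30 receptors fell and 1 rose. The shares over all genes were 4.80% for falls and 3.72% for rises. At or above the median gene level, where 14.1% of all genes changed, lay 9 of the 15 ligands and 11 of the 30 receptors. Whether ligands and receptors differed from each other or from genes of like level was not tested. The remaining 2 symbols that the rule matched, UNC50, a protein of the early secretory pathway, and UNC5CL, a death-domain protein, differed by 0.34 (adjusted p = 0.0606) and 0.13.

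**Figure D3:**
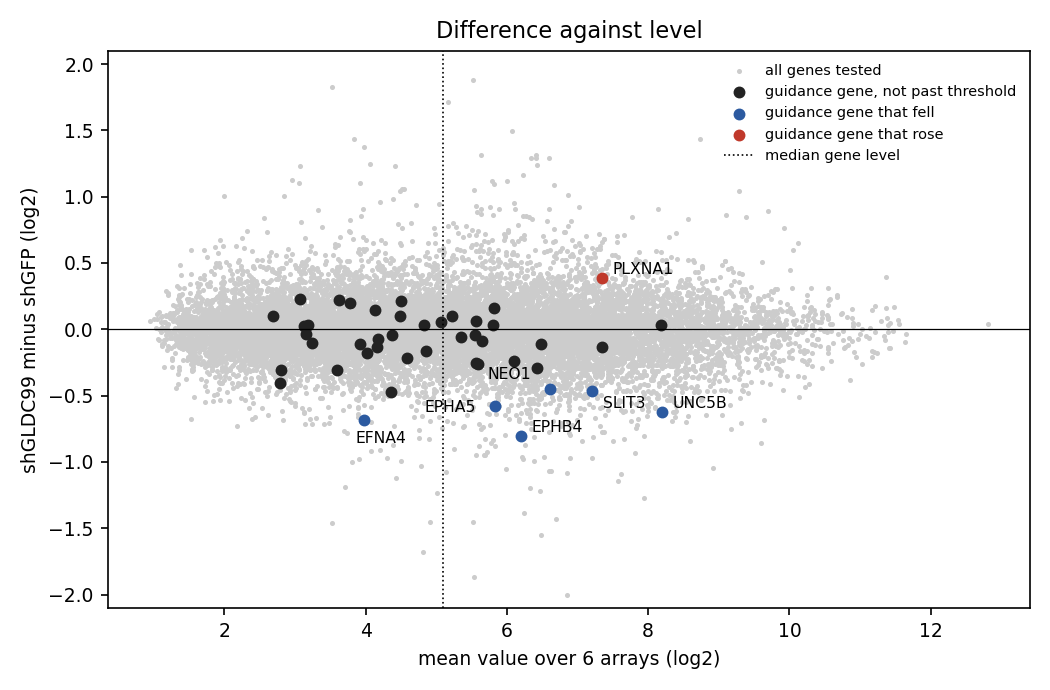
Difference (shGLDC99 minus shGFP, log2) against the mean value over 6 arrays for all 14779 genes (light grey) and the 45 guidance genes (black, blue where they fell, red where they rose); the dotted line is the median gene level of 5.09. EFNA4 is the only changed guidance gene to the left of that line.

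Co-receptors, partner ligands and intracellular effectors of guidance were listed from general knowledge. Of 93 such genes 72 were measured, with 10 falls and 5 rises; the other 57 missed the threshold, so 20.8% of the list changed, where 8.52% of all genes did. Of the 72, 53 lay at or above the median gene level, where 14.1% of all genes changed, and the list was written with earlier results of these data known. The list median was -0.04. RGMA, RGMB, FYN, RAC1, CDC42, ROCK1 and ROCK2 were among the 21 without a named probe set. The falls included proteins that act below the receptors, and also a receptor (MET) and a membrane ligand (FLRT2). MYO10, the filopodial myosin that carries DCC and NEO1, read 6.01 to 6.06 in shGFP and 5.03 to 5.14 in shGLDC99 arrays and fell by 0.94 ± 0.0635 (SE), or 1.92-fold lower (limma adjusted p = 0.00159). It was further from 0 than any of the 45 ligands and receptors. DOCK1, an exchange factor for Rac used by netrin signalling, fell by 0.44, CHN1, a Rac-inactivating protein downstream of EPHA4, by 0.39, and DPYSL3, a collapsin response mediator of semaphorin signalling, by 0.50. Chosen after their values were seen, DPYSL5 (-0.36), the Slit-Robo GTPase-activating protein SRGAP1 (-0.40), the DCC-binding ubiquitin ligase TRIM9 (-0.45), the scaffold GRIP1 (-0.35), the receptor MET (-0.30) and FLRT2, a ligand of UNC5 receptors (-0.77, dim), also fell.

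The 5 genes that rose encode adhesion and membrane proteins of axons. Other listed genes of that kind missed the threshold, such as CHL1 (-0.09) and CNTN2 (0.23), named with their values known. Whether rises and falls differed by kind of protein was not tested. SDC3, a neuronal heparan sulphate proteoglycan, rose by 0.67, from 4.75 to 4.91 in shGFP to 5.38 to 5.57 in shGLDC99 arrays (limma adjusted p = 0.00796). NRCAM rose by 0.60 and L1CAM by 0.55; both are immunoglobulin-type adhesion molecules that act beside neuropilins in semaphorin reception. GAP43, a growth cone protein, rose by 0.41. DSCAM, a netrin-binding adhesion molecule named here with its value already known, rose by 0.28 and is dim. With 5 of the 6 arrays, the list held 3, 1 and 1 falls without shGFP a, b and c and 4, 3 and 2 falls without shGLDC99 a, b and c, and 2 or 3 rises in each case. MYO10, SDC3 and NRCAM passed in each of these 6 fits. DOCK1, DPYSL3 and L1CAM passed in 2 of the 6, CHN1, TRIM9, SRGAP1 and GRIP1 in 1, and GAP43, DPYSL5, MET, FLRT2 and DSCAM in 0, with limma adjusted p-values of up to 0.139.

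**Figure D4:**
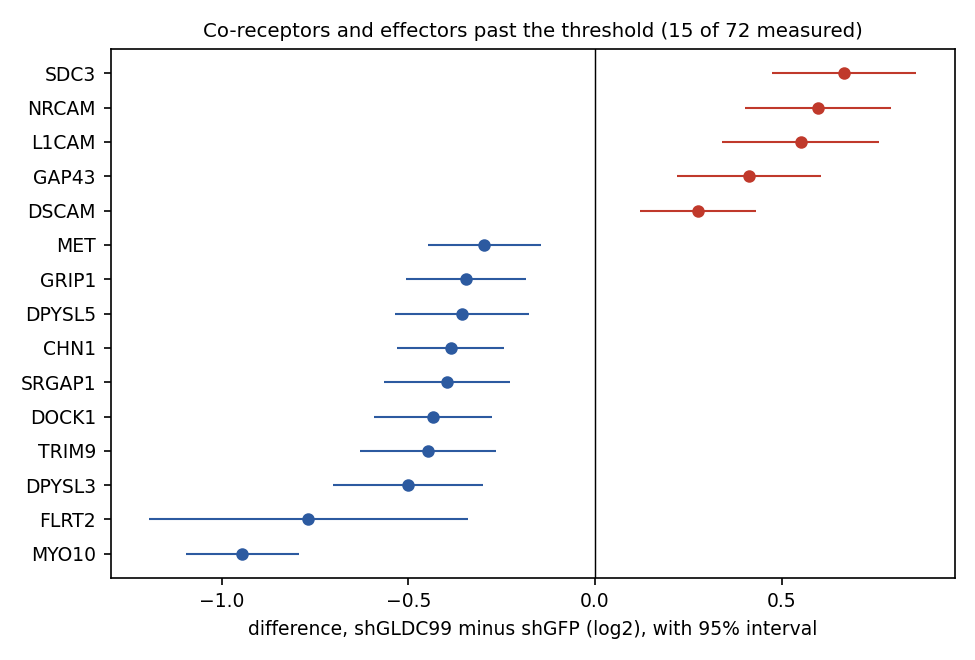
Differences (shGLDC99 minus shGFP, log2) with 95% intervals for the 15 of 72 measured co-receptors and effectors past the threshold. The 10 falls run from MYO10 at -0.94 to MET at -0.30, and the 5 rises from DSCAM at 0.28 to SDC3 at 0.67.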

How the data were processed

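Total RNA of 6 samples, 3 shGFP and 3 shGLDC99, was biotin-labelled, per the labels, and hybridised to Human Gene 2.0 ST arrays from Affymetrix. Each probe set has 1 deposited value per array, taken here as log2 intensity. That log base is an inference: values reach 13.28, while natural logs of 16-bit intensities end at 11.09. The authors used Partek, per the submitters' processing notes, with no version named. How background, normalization and summarisation were handled is not given in the sources used here. Values were used without renormalizing, and precision is limited by the number of arrays.

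Of 31135 probe sets 15098 carried 1 gene symbol, 0 several, and 16037 had no name in the platform annotation. All 15098 matched the RefSeq gene table (GRCh38.p14) by Entrez ID. Where a gene had several probe sets (256 of 14779 genes), that with the highest mean over the 6 arrays was kept. The array's genome build is not stated, so the only coordinates given are those of RefSeq sequences. Differences were fitted with limma 3.58.1 (lmFit and eBayes, no covariates) in R 4.3.3, without a filter on dim genes. Plots used matplotlib 3.10.9.

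On simulated data (14779 genes, 200 changed, 3 against 3 arrays) the fit recovered 46% of the genes changed by 0.5 and 96% of those changed by 1 on the log2 scale; 10 of 152 calls were unchanged genes. Noise was drawn independently for each gene, and 1259 genes were called in the real data. The shares recovered may therefore differ in the real fit. The members, lists and motifs were chosen with earlier results of these data known. Named were GLDC, every member past the threshold or without overlap between groups, the member with the smallest p and the largest difference in each role group, and up to 4 listed pathway genes per direction; others were added to complete counts. The alternatives were quantile normalization, centring on array medians, leaving out the dimmest 40% of genes, averaging probe sets, the replicate letter as a block, an intensity trend in the prior variance, no moderation, and leaving out each array in turn.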

Additional observations from a re-analysis of the deposited data

How the results depend on the processing

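EPHB4 and UNC5B fell in all 13 alternative fits and EFNA4 in all 12 that tested it. SLIT3 fell in 12 of 13, and EPHA5 and NEO1 in 9 of 13 each. PLXNA1 rose in 5 of 13. The sign of these 7 differences was kept in every fit.

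Correlation over all genes did not set arrays of the same letter apart from the others. It used unscaled deviations with dim genes included, so it cannot show that no pairing existed. Deviations from the group means correlated at -0.0119, 0.0182 and -0.00106 between arrays of the same letter, and at -0.0175 to 0.0187 between different letters. Whether samples of the same letter shared a culture or handling was not tested. With the replicate block, which leaves fewer degrees of freedom, 103 genes rose and 126 fell in place of 550 and 709, 0 guidance genes rose and 3 fell (EPHB4, UNC5B and EFNA4), and 0 pathway genes outside the members rose and 1 fell. Leaving out 1 array, which leaves fewer samples, gave 207 to 240 rises and 238 to 327 falls over all genes, 0 rises and 4 to 6 falls among guidance genes, and 2 to 3 rises and 1 to 4 falls among the pathway genes.

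Without the dimmest 40% of genes, 969 genes rose and 1252 fell, with 10 rises and 15 falls among the pathway genes; NRP2 took the place of EFNA4, which was not tested there, among 6 falls of guidance genes. When the prior variance followed intensity, 1088 genes rose and 1350 fell, with 8 rises and 15 falls among the pathway genes; 8 guidance genes fell, NRP2 (adjusted p = 0.0128) and PLXNA2 (adjusted p = 0.0368) added. Without moderation 0 guidance genes rose. The cause of these shifts was not tested. No alternative moved the median over all genes by more than 0.02 on the log2 scale from 0. Dim genes limit the rest: 25 of the 45 ligands and receptors lay below the median gene level.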

Other observations

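The netrin-G proteins, lipid-anchored relatives of the netrins that bind other partners at synapses, do not meet the rule and were chosen after their values were seen. NTNG1 read 5.49, 5.05 and 5.57 in shGFP and 4.63, 4.59 and 4.91 in shGLDC99 arrays, a difference of -0.66 ± 0.159 (SE; limma adjusted p = 0.0521), and its groups did not overlap. NTNG2 differed by -0.20 (adjusted p = 0.245). Both are dim.

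Antisense transcripts of members were left out by the rule. UNC5B-AS1, which lies within the bounds of UNC5B, read 3.52 to 3.62 in shGFP and 3.75 to 3.78 in shGLDC99 arrays, a difference of 0.20 (adjusted p = 0.100) against the fall of UNC5B. EPHA5-AS1 differed by -0.13, SLIT1-AS1 by -0.27 and EPHA1-AS1 by -0.34. None of these 4 dim transcripts passed the test.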
